A study of Mus musculus with 29 samples.

Results

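The sirtuins and the enzymes that supply their cosubstrate NAD were examined in mice under calorie restriction (CR), treadmill exercise training (EX), or both (CREX). The genes were the 7 sirtuins (Sirt1 to Sirt7) and 3 genes of NAD synthesis (Nampt, Nmnat1 and Nmrk2), taken from the expression table by their symbols. All 10 were found among the 24770 rows of the table. Wild-type male C57BL/6J mice were 8 weeks old at the start and were treated for 8 weeks. Control mice ate ad libitum and stayed sedentary, CR mice received 70% of ad libitum intake by the end, EX mice ran on a treadmill with free access to food, and CREX mice ran and received 70%. All mice were fasted for 6 h before tissue collection, and trained mice were collected 24 h after the last run. RNA sequencing of brown adipose tissue (BAT) covered 3 control, 4 CR, 4 EX and 4 CREX mice, and that of gastrocnemius muscle (SkM) covered 4 control, 3 CR, 4 EX and 3 CREX mice.

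NAD is an electron carrier in metabolism and is also consumed as a substrate by sirtuins, poly-ADP-ribose polymerases and the ectoenzyme CD38, which release nicotinamide. Nicotinamide is returned to NAD through the salvage pathway, in which NAMPT makes nicotinamide mononucleotide at the rate-limiting step and an NMNAT enzyme turns it into NAD. NMRK2, an enzyme typical of striated muscle, makes nicotinamide mononucleotide from nicotinamide riboside instead. SIRT1, SIRT6 and SIRT7 are mainly nuclear, SIRT2 is mainly cytosolic, and SIRT3, SIRT4 and SIRT5 are mitochondrial. Fasting and calorie restriction are classical settings in which sirtuins have been studied, and Nampt is a textbook target of the circadian factors CLOCK and BMAL1.

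The promoters of the 3 genes with the clearest responses to restriction, and that of Sirt1, are shown as RefSeq gives them on GRCm38.p6, from 250 bases before to 50 bases after the annotated start, 5′ to 3′ on the strand of the gene. Capitals mark matches, on either strand and with overlapping matches counted, to the E-box CACGTG, the nuclear receptor site AAGGTCA, the TATA sequence TATAAA and the GC box GGGCGG. The windows are chr12:32820085-32820384 on the plus strand for Nampt, chr10:81201988-81202287 on the minus strand for Nmrk2, chr7:140882260-140882559 on the minus strand for Sirt3 and chr10:63338986-63339285 on the minus strand for Sirt1.
Nampt: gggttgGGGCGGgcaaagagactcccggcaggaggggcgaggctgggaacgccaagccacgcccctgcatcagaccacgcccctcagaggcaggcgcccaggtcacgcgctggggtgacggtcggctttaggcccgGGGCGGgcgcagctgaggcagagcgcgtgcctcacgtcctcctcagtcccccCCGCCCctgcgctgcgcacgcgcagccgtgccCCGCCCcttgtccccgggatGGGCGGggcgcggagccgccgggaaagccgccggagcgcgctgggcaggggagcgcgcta
Nmrk2: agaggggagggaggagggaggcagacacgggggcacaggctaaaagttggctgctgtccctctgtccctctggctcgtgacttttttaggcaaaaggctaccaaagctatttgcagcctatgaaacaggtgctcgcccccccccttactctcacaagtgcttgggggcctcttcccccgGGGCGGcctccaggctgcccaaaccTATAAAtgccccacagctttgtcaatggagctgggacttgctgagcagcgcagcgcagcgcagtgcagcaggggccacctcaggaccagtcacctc
Sirt3: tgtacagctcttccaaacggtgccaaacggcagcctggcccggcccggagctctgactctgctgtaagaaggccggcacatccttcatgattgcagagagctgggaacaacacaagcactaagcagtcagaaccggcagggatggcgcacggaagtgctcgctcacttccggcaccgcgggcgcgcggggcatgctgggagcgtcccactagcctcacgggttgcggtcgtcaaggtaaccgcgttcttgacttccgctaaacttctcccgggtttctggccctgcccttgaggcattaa
Sirt1: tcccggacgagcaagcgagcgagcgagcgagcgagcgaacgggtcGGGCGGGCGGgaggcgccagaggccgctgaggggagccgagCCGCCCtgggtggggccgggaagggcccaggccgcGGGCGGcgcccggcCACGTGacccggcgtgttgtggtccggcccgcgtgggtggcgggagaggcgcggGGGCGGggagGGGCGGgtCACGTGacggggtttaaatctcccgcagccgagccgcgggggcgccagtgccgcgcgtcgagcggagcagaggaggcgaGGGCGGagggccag

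The Nampt window, with 76.3% G and C, held 5 GC boxes and no other searched motif, and the Sirt1 window held 7 GC boxes and 2 E-boxes. The Nmrk2 window held 1 GC box and a TATA sequence that began 46 bases before the start. None of the 4 motifs was found in the Sirt3 window. Of 32851 mouse promoters of this length, 35.7% held the GC box, 13.6% the TATA sequence, 7.15% the E-box and 4.72% the nuclear receptor site. These matches describe the letters of the windows only.

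The genes lie on 7 chromosomes of GRCm38. In the GENCODE M21 annotation, Nampt spans chr12:32819545-32853349, Nmrk2 chr10:81198170-81202051, Nmnat1 chr4:149467572-149485202, Sirt1 chr10:63319005-63381704, Sirt2 chr7:28766735-28788661, Sirt3 chr7:140863666-140882309, Sirt4 chr5:115478010-115484725, Sirt5 chr13:43365496-43395203, Sirt6 chr10:81621785-81627797 and Sirt7 chr11:120618372-120625240. The promoter windows of Sirt1 and Nampt lie wholly inside these spans, so the RefSeq starts used for them are not the 5′ ends of the GENCODE genes. Exons of Sirt3 share 152 bases with Psmd13 and 61 with Ric8a, both on the opposite strand, and exons of Nmrk2 share 270 bases, 14.6% of their length, with the antisense gene Atcayos. The RSEM command printed in the paper's methods sets no strand option, so reads from the shared bases cannot be told apart.

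Libraries held 21047247 to 24919372 counts in BAT and 23050913 to 23425289 in SkM, so that 3 counts correspond to 0.120 to 0.143 and 0.128 to 0.130 counts per 1000000 counts (CPM). CPM values below are scaled by TMM, a normalization of library composition, within a tissue. Both tissues carried their defining transcripts, as the summed level of 6 brown adipocyte markers lay between 3034 and 7144 CPM in every BAT library, against 63.6 to 229.4 CPM in muscle, and that of 10 muscle fibre genes lay between 106900 and 185000 CPM in every SkM library. The same muscle genes ranged from 3.262 to 5826 CPM among BAT libraries. Several markers moved with restriction. In BAT the brown adipocyte sum was 6021 to 7144 CPM in control, 5192 to 6171 in EX, 3931 to 4797 in CR and 3034 to 4470 in CREX mice, and the fibroblast and endothelial sums were lower in all CR than in all control libraries. In SkM the endothelial sum was 219.4 to 288.8 CPM in control and 140.3 to 181.2 in CR mice, and 221 to 273.9 in EX and 96.87 to 199.1 in CREX mice. Sedentary SkM groups were also apart in the fibroblast sum (321.9 to 412.5 CPM in control, 232.8 to 292.9 in CR) and the muscle fibre sum (106900 to 121800 and 131600 to 185000). The sum of the 6 brown adipocyte genes was apart in sedentary SkM (141.8 to 229.4 CPM in control, 104.8 to 132.3 in CR). It was apart in trained SkM too (174.8 to 194.2 in EX, 63.6 to 127.6 in CREX). Which cells this sum reflects in muscle was not tested. The sum of 6 general adipocyte genes overlapped in SkM. It was 168.6 to 241.7 CPM in control, 154.3 to 234.1 in CR, 157.4 to 242.2 in EX and 98.15 to 255.6 in CREX mice. The slow fibre sum in SkM was 1097 to 2126 CPM in control, 1706 to 2049 in CR, 374.7 to 2016 in EX and 35.28 to 623.6 in CREX mice. The part of these shifts in the results below was not tested except where an adjusted value is given. In bulk tissue, fewer cells of a type and less RNA per cell cannot be told apart.

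Nampt, the rate-limiting enzyme of NAD salvage, was higher under restriction in BAT and lower in SkM. In BAT it stood at 217.9, 199.0 and 248.1 CPM in the control libraries and at 379.9, 299.3, 338.2 and 319.8 CPM in the CR libraries. Trained mice gave 224.3, 224.5, 236.7 and 287.8 CPM in EX and 287.5, 322.8, 355.3 and 337.9 CPM in CREX. Every CR library exceeded every control library, whereas the lowest CREX library lay just under the highest EX library.

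In sedentary mice the mean rose from 221.7 ± 24.7 (SD, n = 3) to 334.3 ± 34.3 CPM (SD, n = 4), a log2 fold change of 0.59 (SE 0.097) with an adjusted p of 0.00257 in edgeR's quasi-likelihood test. A gene was called when its adjusted p was below 0.05 and its fold exceeded 1.5 either way. The Nampt fold change was 1.502, and it stayed above 1.5 in 10 of 15 alternative analyses, while the adjusted p remained at or below 0.0163 in all of them. The alternative without a fold minimum used the same fit, so it could not move these values. The fold fell below 1.5 with a minimum of 10 counts in every library (log2 0.58) and without CR replicate 1 (0.52), CR replicate 3 (0.58), control replicate 1 (0.58) or control replicate 2 (0.52). Nampt was the only one of 9 tested members called in this comparison, against 3.74% of all 13303 tested genes called higher and 10.6% called in either direction. In trained mice the difference was 0.42 on the log2 scale (SE 0.098, edgeR adjusted p = 0.0319), a fold of 1.33 under the minimum, and 0 of 9 members were called there (4.47% of all genes), with 3 at an unadjusted p under 0.05 and 1, Nmrk2, called by DESeq2 but not by edgeR without the count filter (adjusted p = 0.212). The trained value had an edgeR adjusted p of 0.0575 to 0.0815 without CREX replicate 2, 3 or 4 or EX replicate 1, 2 or 3. Averaged over sedentary and trained mice, restriction raised Nampt by 0.50 (SE 0.073, edgeR adjusted p = 1.23e-04), and by 0.54 with the muscle gene score of each library as a covariate (edgeR adjusted p = 5.48e-05).

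In SkM the order was the opposite. Nampt was at 100.5, 109.5, 101.8 and 109.8 CPM in control libraries and at 76.97, 81.33 and 93.82 CPM in CR libraries. It was at 107.5, 107.6, 97.75 and 118.9 CPM in EX libraries and at 85.05, 86.89 and 84.96 CPM in CREX libraries. The restricted libraries lay below the unrestricted ones in both pairs of groups. Neither pairwise difference passed the threshold, at log2 −0.32 (SE 0.11, edgeR adjusted p = 0.0714) in sedentary and −0.33 (SE 0.099, edgeR adjusted p = 0.0513) in trained mice. The average over both was −0.33 (SE 0.070, edgeR adjusted p = 0.00253), a fold of 0.796, and −0.35 with the slow fibre score as a covariate (edgeR adjusted p = 0.00952). The sedentary effects in BAT and SkM, fitted together, differed by 0.93 on the log2 scale (SE 0.15, edgeR adjusted p = 0.00208). Of the 10 members, 3 (Nampt, Sirt3 and Sirt5) passed this test of the tissue difference, which 7.63% of all genes passed.

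**Figure D1:**
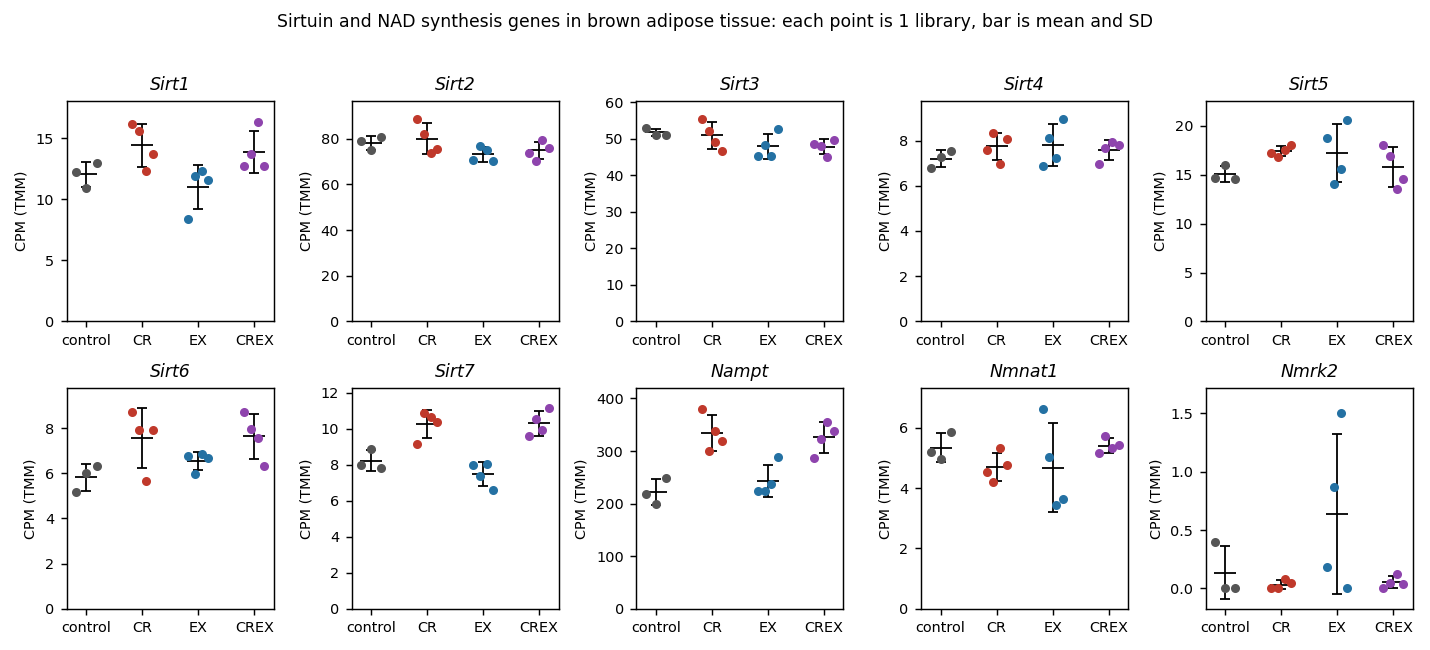
Levels of the 10 genes in BAT in CPM scaled by TMM, by group on the horizontal axis, with 1 point per library and the mean and SD as bars. Nampt was 299.3 to 379.9 CPM in CR mice against 199 to 248.1 in controls, while Sirt2 overlapped in all groups and Nmrk2 stayed at or below 1.5 CPM. Sirt3 also overlapped, except that control libraries (51.16 to 52.99 CPM) lay above CREX libraries (45.12 to 49.79 CPM).

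**Figure D2:**
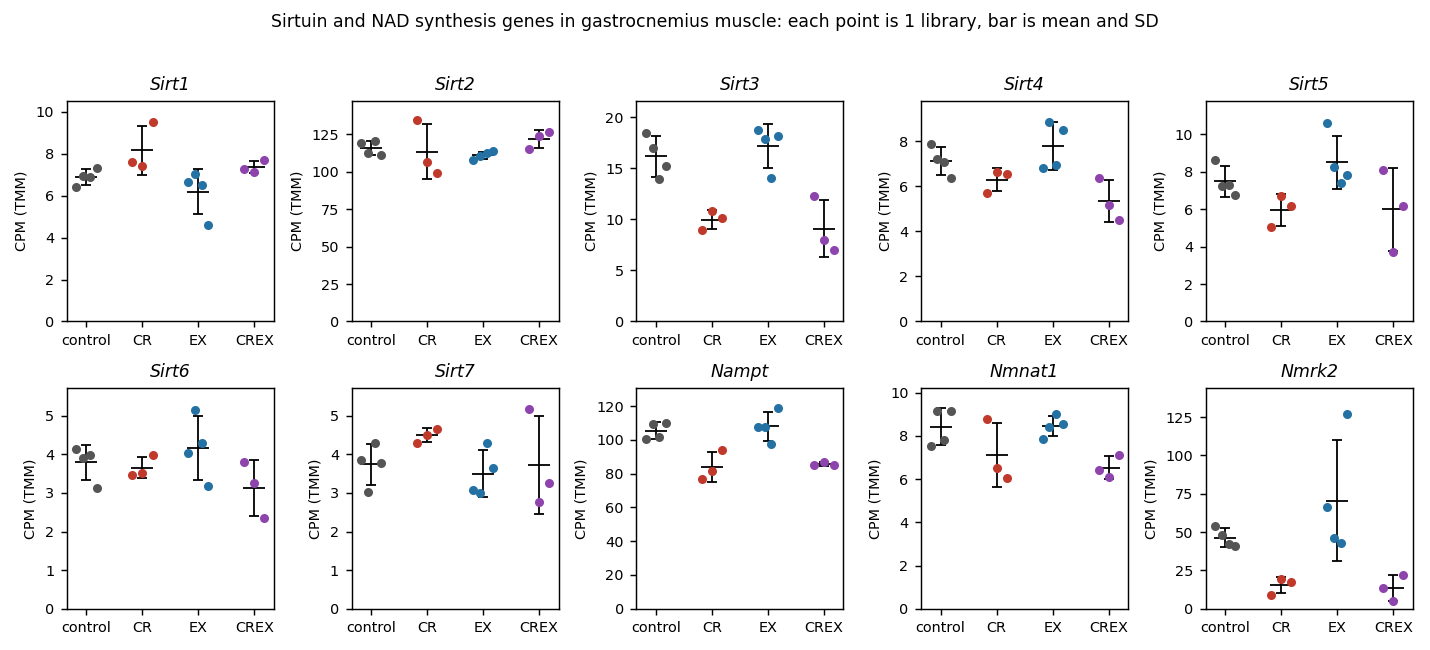
Levels of the same genes in gastrocnemius in CPM scaled by TMM, by group, with 1 point per library and the mean and SD as bars. Nmrk2 and Sirt3 in the CR and CREX libraries lay below all control and EX libraries, and Nmrk2 in EX replicate 4 reached 127.3 CPM.

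Nmrk2, the nicotinamide riboside kinase of muscle, gave the largest change of the 10 genes. In SkM it was at 54.21, 48.01, 42.27 and 41.03 CPM in control libraries and at 9.265, 19.18 and 17.69 CPM in CR libraries. EX libraries had 66.24, 46.01, 42.68 and 127.3 CPM, and CREX libraries 13.57, 5.382 and 22.02 CPM. All 6 restricted libraries lay below all 8 unrestricted ones, and EX replicate 4 stood well above the other EX libraries.

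The sedentary mean fell from 46.38 ± 6.04 (SD, n = 4) to 15.38 ± 5.34 CPM (SD, n = 3), a log2 fold change of −1.59 (SE 0.22, edgeR adjusted p = 0.00158) and a fold of 0.332. It was called in all 15 alternatives, with values from −1.78 to −1.34. The alternative without a fold minimum used the same fit and could not lose the call. In trained mice the difference was larger and more variable, at −2.36 (SE 0.62), and the edgeR adjusted p of 0.0547 missed the threshold. It was −1.92 without EX replicate 4 (edgeR adjusted p = 0.0802), and it passed with DESeq2 (adjusted p = 0.00333), with the minimum of 10 counts (edgeR adjusted p = 0.0472) and in 1 fit on all groups (edgeR adjusted p = 0.00774). Averaged over sedentary and trained mice, the effect of restriction was −1.98 (SE 0.34, edgeR adjusted p = 0.00123). Nmrk2 and Sirt3 were the 2 members called lower in sedentary SkM, of 10 tested, where 5.3% of 13151 genes were called lower and 9.58% in either direction.

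In BAT, Nmrk2 had between 0 and 37 counts per library and did not pass the filter on low counts in the BAT comparisons. It was at 0 in 6 of 15 libraries, which allows up to 0.143 CPM for counting error alone, and at 3 counts or fewer in 11. The counts of at least 4 were found in 4 libraries, control replicate 1 with 9, EX replicate 1 with 4, EX replicate 2 with 19 and EX replicate 3 with 37. The muscle gene sum of these 4 libraries was 640.6, 1191, 3585 and 3662 CPM, so EX replicates 2 and 3 had both the most Nmrk2 and high muscle sums. CREX replicates 3, 4 and 2 and CR replicate 3, with muscle sums of 5826, 1934, 1245 and 1348 CPM, had 3, 1, 1 and 2 counts of Nmrk2.

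**Figure D3:**
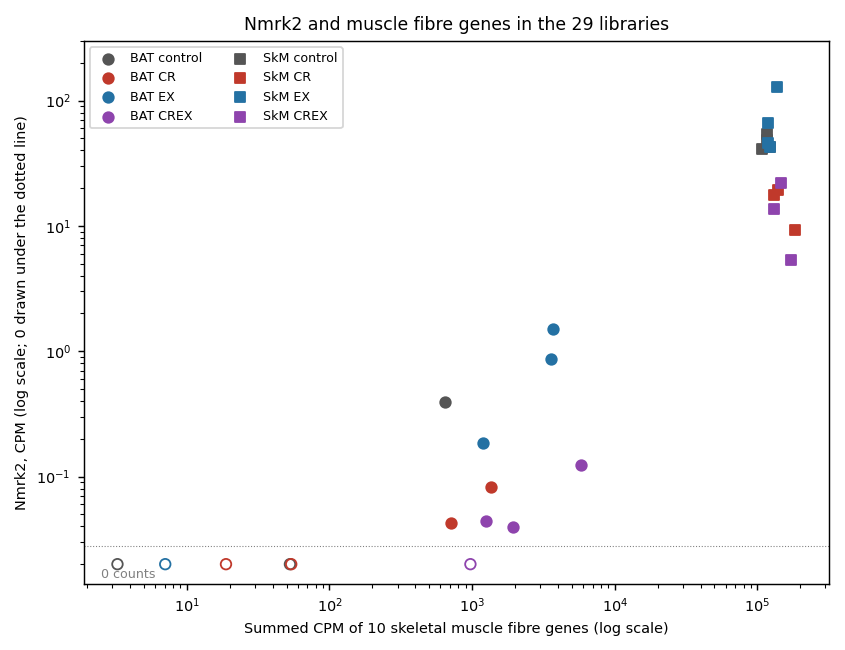
Nmrk2 in CPM (vertical, log scale, libraries at 0 counts drawn open under the dotted line) against the summed CPM of 10 skeletal muscle fibre genes (horizontal, log scale) in all 29 libraries, with circles for BAT, squares for SkM and colours for groups. The restricted SkM libraries, at 5.382 to 22.02 CPM, lay below the unrestricted ones, at 41.03 to 127.3 CPM, with muscle sums of 130500 to 185000 against 106900 to 138200 CPM, and the 5 BAT libraries with at most 53.92 CPM of muscle genes had no Nmrk2 count.

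Nmnat1, the nuclear enzyme of the last step to NAD, did not differ in BAT beyond the spread of the libraries. Its BAT levels ran from 4.955 to 5.864 CPM in control, 4.213 to 5.321 in CR, 3.445 to 6.611 in EX and 5.154 to 5.726 in CREX mice, and the average effect of restriction was 0.01 on the log2 scale (95% interval −0.25 to 0.27). In SkM it was at 7.547 to 9.173 CPM in control and 7.878 to 8.998 CPM in EX mice, against 6.036 to 8.782 in CR and 6.08 to 7.104 in CREX mice. The CREX and EX libraries did not overlap, while CR replicate 1 lay within the control range. The average effect in SkM was −0.31 (SE 0.098, edgeR adjusted p = 0.0246), and −0.30 with the slow fibre score as a covariate (edgeR adjusted p = 0.086). Without CR replicate 2 or 3, control replicate 2 or CREX replicate 2 the edgeR adjusted p was 0.0507 to 0.0666.

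Sirt3, the main deacetylase of mitochondria, fell in SkM and was level in BAT. The SkM control libraries gave 18.45, 17.0, 13.94 and 15.27 CPM and the CR libraries 8.957, 10.83 and 10.09 CPM. The EX libraries gave 18.79, 17.87, 14.02 and 18.17 CPM and the CREX libraries 12.28, 7.97 and 7.024 CPM. No restricted library reached any unrestricted one, in sedentary or in trained mice.

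The sedentary difference was −0.69 (SE 0.13, edgeR adjusted p = 0.00584), a fold of 0.618, and the trained difference was −0.92 (SE 0.19, edgeR adjusted p = 0.019), a fold of 0.528. Sirt3 was the only one of 10 members called in trained SkM, where 5.17% of 13091 genes were called lower and 8.88% in either direction. The trained call was lost without CREX replicate 2 or 3 or EX replicate 1, 2 or 4, with edgeR adjusted p from 0.0502 to 0.0785 and log2 values from −0.90 to −0.77. Slow fibre transcripts also separated these groups in part, as given above, and with the slow fibre score as a covariate the trained difference was −0.74 (edgeR adjusted p = 0.204). The sedentary difference was −0.66 with this covariate (edgeR adjusted p = 0.00816) and the average effect, −0.81 (SE 0.12, edgeR adjusted p = 1.49e-04) without it, was −0.75 (edgeR adjusted p = 0.00111).

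In BAT, where Sirt3 ran from 45.12 to 55.47 CPM over all 15 libraries, the average effect of restriction was −0.02 (95% interval −0.12 to 0.09). The sedentary effects of the 2 tissues differed by 0.68 (SE 0.14, edgeR adjusted p = 0.00893).

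Sirt4 and Sirt5, the mitochondrial sirtuins that act on lipoyl or ADP-ribose groups and on succinyl and malonyl groups, showed smaller differences in the same direction in SkM. Sirt4 was at 6.367 to 7.869 CPM in control, 5.708 to 6.642 in CR, 6.837 to 8.867 in EX and 4.524 to 6.369 in CREX mice. The CREX libraries lay below the EX libraries, and the CR and control libraries overlapped. Its average effect was −0.36 (SE 0.099, edgeR adjusted p = 0.0115), which was −0.27 with the slow fibre score (edgeR adjusted p = 0.091). Sirt5 was at 6.784 to 8.651 CPM in control, 5.049 to 6.682 in CR, 7.415 to 10.59 in EX and 3.697 to 8.118 in CREX mice. The average effect on Sirt5 was −0.42 (SE 0.14, edgeR adjusted p = 0.0358), with adjusted p from 0.00488 to 0.0845 when single libraries were left out. The adjusted p exceeded 0.05 without CR replicate 1 or 3, control replicate 1, 2 or 3, CREX replicate 2 or EX replicate 1 or 2, and with the slow fibre score (edgeR adjusted p = 0.085). The effect was −0.30 without CREX replicate 2, the lowest library (edgeR adjusted p = 0.0684).

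In BAT, Sirt4 ran from 6.782 to 8.937 CPM with an average effect of 0.03 (95% interval −0.12 to 0.18). Sirt5 was at 14.58 to 15.95 CPM in control and 16.8 to 18.02 CPM in CR mice. These groups did not overlap, but the sedentary difference of 0.20 had an edgeR adjusted p of 0.0849, and the average effect was 0.04 (95% interval −0.13 to 0.21). The sedentary effects on Sirt5 in BAT and SkM differed by 0.54 (SE 0.15, edgeR adjusted p = 0.0423), a call that 12 of 19 alternatives did not keep.

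**Figure D4:**
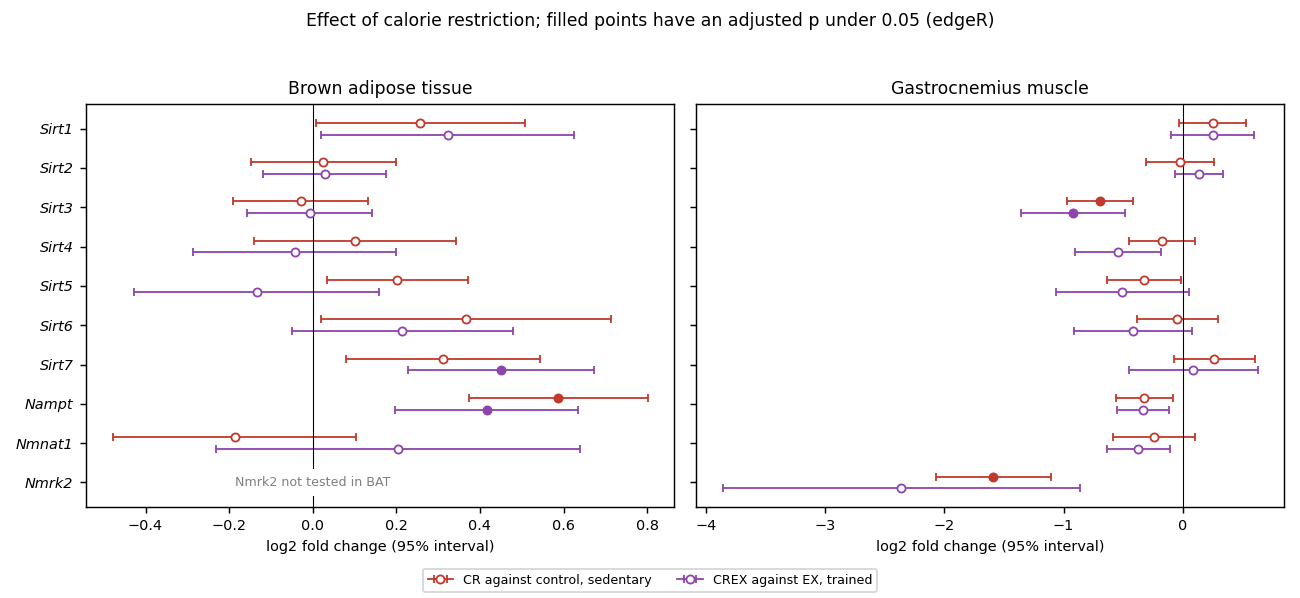
Log2 fold change under restriction with its 95% interval for each gene, in BAT (left) and gastrocnemius (right), in red for CR against control and in purple for CREX against EX, with filled points for an adjusted p under 0.05. Nampt was at 0.59 and 0.42 in BAT and at −0.32 and −0.33 in SkM, and Sirt3 was near 0 in BAT and at −0.69 and −0.92 in SkM. The horizontal scales of the panels differ.

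Among the nuclear sirtuins, Sirt7, which acts on chromatin and the nucleolus, had the clearest difference in BAT. It was at 7.963, 8.903 and 7.846 CPM in control libraries and at 9.166, 10.89, 10.64 and 10.37 CPM in CR libraries. EX libraries had 7.997, 7.37, 8.025 and 6.615 CPM and CREX libraries 9.589, 10.56, 9.918 and 11.14 CPM. All 8 restricted libraries lay above all 7 unrestricted ones. The difference was 0.31 (SE 0.11, edgeR adjusted p = 0.0577) in sedentary and 0.45 (SE 0.10, edgeR adjusted p = 0.0249) in trained mice, the second a fold of 1.37, and the average was 0.38 (SE 0.069, edgeR adjusted p = 6.79e-04). The trained value had an edgeR adjusted p of 0.0695 with the replicate number as a block, and of 0.053 to 0.0746 without CREX replicate 2 or 4 or EX replicate 2 or 4. In SkM, Sirt7 ran from 2.753 to 5.162 CPM, and its average effect of 0.17 had a 95% interval of −0.13 to 0.47.

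Sirt1, the nuclear deacetylase best known from work on restriction, showed small differences in both tissues, with an average effect that passed the edgeR adjusted p of 0.05 in BAT only. In BAT it was at 12.25, 10.92 and 12.97 CPM in control and at 16.16, 15.57, 12.33 and 13.72 CPM in CR libraries, which overlapped. It was at 8.367, 11.9, 12.32 and 11.57 CPM in EX and at 12.71, 13.72, 16.36 and 12.72 CPM in CREX libraries, which did not. Its average effect in BAT was 0.29 (SE 0.094, edgeR adjusted p = 0.0259), with an edgeR adjusted p of 0.0505 to 0.0726 without CR replicate 1, control replicate 2 or CREX replicate 3. The average effect in SkM was 0.25 (SE 0.098, edgeR adjusted p = 0.0587). There Sirt1 was at 6.396 to 7.325 CPM in control and 7.393 to 9.512 in CR mice, and at 4.612 to 7.012 in EX and 7.148 to 7.699 in CREX mice. Neither of these pairs of SkM groups overlapped.

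Sirt6, a chromatin deacylase, was at 5.163 to 6.318 CPM in BAT control and 5.651 to 8.732 CPM in CR mice, and at 5.951 to 6.85 in EX and 6.322 to 8.71 in CREX mice. Its average effect in BAT was 0.29 (SE 0.098, edgeR adjusted p = 0.031), and edgeR adjusted p ran from 0.00471 to 0.0857 with single libraries left out. It exceeded 0.05 without CR replicate 1, 2 or 4, control replicate 1 or 2, CREX replicate 1 or 2 or EX replicate 2, and was 0.0542 with the replicate block. In SkM, where Sirt6 ran from 2.341 to 5.157 CPM, the average was −0.23 (95% interval −0.51 to 0.05). Sirt2, the cytosolic deacetylase, had average effects of 0.03 in BAT (95% interval −0.08 to 0.14) and 0.06 in SkM (95% interval −0.11 to 0.22).

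Counted without the minimum fold, the average effect of restriction passed an adjusted p of 0.05 for 4 of 9 tested members in BAT, all higher, where 33.4% of all tested genes passed in either direction and 15.9% were higher. In SkM it passed for 6 of 10 members, all lower, where 33.5% passed in either direction and 17% were lower. With the minimum fold, 0 of 9 members were called in BAT (11.8% of all genes), with 4 at an unadjusted p under 0.05 and 1, Nmrk2, called by DESeq2 but not by edgeR without the count filter (adjusted p = 0.132), and 2 of 10 were called lower in SkM (8.12% of all genes called lower, 14.1% in either direction). The median log2 effect of the tested members was 0.04 in BAT and −0.32 in SkM, where the median of all tested genes was −5e-04 and 0.0041. Groups did not overlap for 3 of 9 members in sedentary BAT (33.4% of all genes), 2 of 9 in trained BAT (17.7%), 6 of 10 in sedentary SkM (27.5%) and 7 of 10 in trained SkM (28.3%).

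Training alone changed none of the members by this test. In BAT, EX against control had edgeR adjusted p of at least 0.73 for the 9 tested members, with log2 values from −0.18 to 0.20, and 0 of 13410 genes were called (0%). In SkM, the smallest adjusted p was 0.842, for Nmrk2, which differed by 0.60 (95% interval −0.22 to 1.42), against 0.0776% of 12886 genes called. CREX against CR gave smallest edgeR adjusted p of 0.713 in BAT and 0.999 in SkM, where 0.00764% and 0% of all genes were called. In each of these 4 comparisons 0 members passed an unadjusted p of 0.05, 0 were called by DESeq2, and 0 had groups that did not overlap, as did 8.08% of all genes for EX and 5.15% for CREX in BAT, and 4.22% and 7.84% in SkM. Tests of whether the effect of restriction differed between sedentary and trained mice called 0 members, with smallest edgeR adjusted p of 0.863 in BAT and 0.94 in SkM, and 0% of all genes. At an unadjusted p under 0.05 these tests gave 1 member in BAT, Sirt5, and 0 in SkM, and DESeq2 called 0 in either tissue. The intervals still allow sizeable differences for single genes, as for Nmrk2 in SkM (−0.76, 95% interval −2.19 to 0.66).

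In control mice the 2 tissues differed in which of these genes were abundant. Per kilobase of exon, and with all libraries scaled together, Nampt was the highest in BAT at 44.6 ± 4.96 CPM per kb (SD, n = 3), followed by Sirt2 at 31.6 ± 1.24 and Sirt3 at 27.4 ± 0.626. The ranges of these 3 genes did not overlap. Sirt5 (4.65), Sirt7 (4.16), Sirt4 (3.22), Sirt1 (2.48), Sirt6 (2.29) and Nmnat1 (1.70) followed. Of these, neighbours not separated beyond the spread of the libraries were Sirt5 and Sirt7, whose ranges met, and Sirt1 and Sirt6, whose ranges overlapped. Nmrk2 was last at 0.065 CPM per kb, with 2 of 3 libraries at 0.

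In SkM, Sirt2 was the highest at 55.5 ± 2.22 CPM per kb (SD, n = 4). Nmrk2 at 27.0 ± 3.47 and Nampt at 25.2 ± 1.21 came next and overlapped. Sirt3 followed at 10.1 ± 1.23. Sirt4 (3.79), Nmnat1 (3.18), Sirt5 (2.74) and Sirt7 (2.25) formed a series of overlapping neighbours, and so did Sirt7, Sirt6 (1.76) and Sirt1 (1.68).

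Between the tissues, 7 of 10 members were called, where 60% of 13774 genes were. Sirt3 (log2 1.40), Sirt7 (0.86), Nampt (0.80) and Sirt5 (0.74) were higher in BAT, and Nmrk2 (−8.74), Nmnat1 (−0.93) and Sirt2 (−0.84) were higher in SkM, each with an edgeR adjusted p of at most 1.25e-04. The Nmrk2 value depends on how counts near 0 are treated, and the measured means were 0.12 CPM in BAT and 50.1 CPM in SkM.

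**Figure D5:**
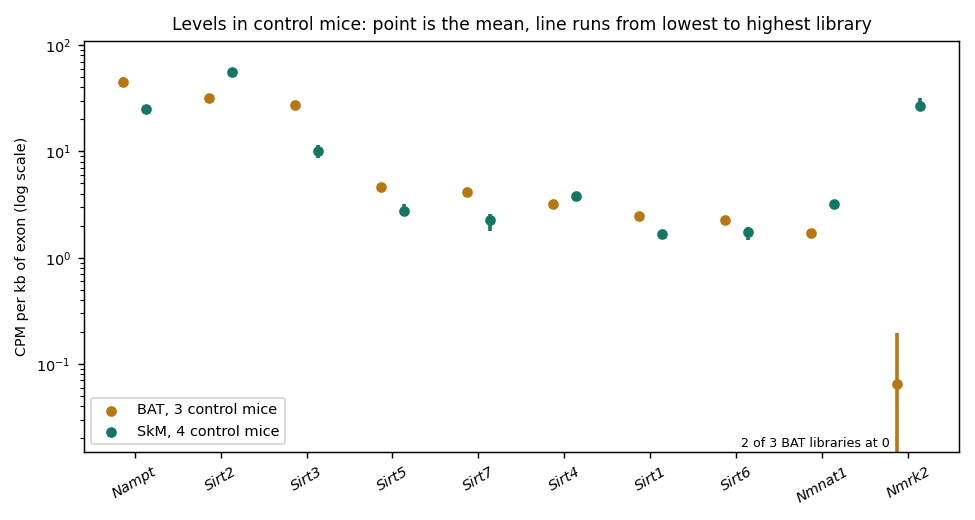
Levels in control mice in CPM per kb of exon (vertical, log scale), with the mean as a point and a line from the lowest to the highest library, for BAT (3 mice) and gastrocnemius (4 mice). Nmrk2 was at 27.0 CPM per kb in SkM and 0.065 in BAT, whereas Sirt3 was at 10.1 in SkM and 27.4 in BAT.

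The other genes of NAD metabolism were examined as lists, beside the share of all genes called, which was 10.6% in sedentary BAT, 4.47% in trained BAT, 9.58% in sedentary SkM and 8.88% in trained SkM. Of 14 other synthesis genes, among them those of the de novo route from tryptophan and Naprt of the nicotinic acid route, only 5 were abundant enough to be tested in the restriction comparisons. None was called in BAT or in sedentary SkM, and Naprt was called in trained SkM at −0.96 (SE 0.21, edgeR adjusted p = 0.0204).

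Of the NAD-consuming enzymes, 15 of 17 were tested. Cd38, the major NAD glycohydrolase, was called in SkM in both comparisons, at −1.27 (SE 0.23, edgeR adjusted p = 0.00524) in sedentary and −1.12 (SE 0.24, edgeR adjusted p = 0.0198) in trained mice. Its SkM levels were 4.464 to 7.59 CPM in control, 1.888 to 2.941 in CR, 4.573 to 5.652 in EX and 1.684 to 3.414 in CREX mice, with no overlap between restricted and unrestricted libraries. The endothelial sum moved in the same direction, as given above, and its part was not tested. In BAT, Cd38 was at 4.212 to 5.318 CPM in control and 4.207 to 5.538 in CR mice, and the sedentary effects of the tissues differed by 1.18 (SE 0.28, edgeR adjusted p = 0.0177). Parp10 (−1.01) and Tnks (0.63) were also called in trained SkM, with edgeR adjusted p of 0.0475 and 0.0203. Parp9 was the one gene of this list called in sedentary BAT, at −0.60 (edgeR adjusted p = 0.00136), and none was called in trained BAT.

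Of 11 genes for NAD kinases, carriers and nicotinamide clearance, 10 were tested. In sedentary BAT the nucleoside transporter Slc29a1 fell by 0.70 on the log2 scale (edgeR adjusted p = 0.00293) and the ectonucleotidase Nt5e rose by 0.82 (edgeR adjusted p = 0.0492). Nt5e was low, at 1.094 to 2.095 CPM in control and 1.941 to 3.226 CPM in CR mice, and these groups overlapped. In trained SkM, Aox1, an oxidase that clears nicotinamide metabolites, fell by 0.89 (edgeR adjusted p = 0.00897). No gene of this list was called in trained BAT or sedentary SkM.

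Among 22 genes for regulators and substrates of sirtuins, Foxo3 was called higher in all 4 restriction comparisons, from 0.66 in trained BAT to 1.21 in trained SkM. Foxo1, a transcription factor of the fasting response, was called in SkM at 2.37 (SE 0.12, edgeR adjusted p = 9.61e-06) and 2.51 (SE 0.28, edgeR adjusted p = 0.00419), and its sedentary effects differed between the tissues by −2.43 in BAT relative to SkM (edgeR adjusted p = 8.76e-05). Sod2, the mitochondrial superoxide dismutase, was called in trained SkM at −0.61 (SE 0.15, edgeR adjusted p = 0.0313).

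Called higher and lower were 4 and 1 of 21 tested genes of the list in sedentary BAT (10.6% of all genes called), 2 and 0 of 21 in trained BAT (4.47%), 5 and 0 of 22 in sedentary SkM (9.58%) and 2 and 1 of 21 in trained SkM (8.88%). The list also held Cps1, a urea cycle enzyme abundant in liver, and Cyp2e1, a cytochrome P450, which were called higher in sedentary SkM. Cps1 was at 0 to 0.04656 CPM in control and 0.6147 to 3.519 CPM in CR libraries. Albumin (Alb), looked at after these values were seen, was at 0.1841 to 3.213 CPM in control and 27.88 to 153.6 CPM in CR libraries, and at 34.89 CPM in CREX replicate 1 against 0.1643 and 0.2778 CPM in the other CREX libraries. Cps1 was at 0.9991 CPM in CREX replicate 1 and at 0 in the other trained libraries. Ttr and Apoa1 were looked at together with Alb. Ttr was at 0 to 0.3259 CPM in control and 2.547 to 16.65 CPM in CR libraries. Apoa1 was at 0.04162 to 1.397 CPM in control and 2.722 to 12.3 CPM in CR libraries. In CREX replicate 1, Ttr was at 3.58 and Apoa1 at 1.873 CPM. Cyp2e1 did not track Alb throughout SkM, being at 44.51 CPM in EX replicate 1, where Alb was at 1.313 CPM. In BAT, Cyp2e1 was at 29.35 to 335.7 CPM, and Alb was not looked at there. The part of these transcripts in the values of the members was not tested.

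In each single restriction comparison, some clock genes were called and most were not. Of 15 tested in each comparison, 4 were called higher and 2 lower in sedentary BAT (10.6% of all genes called), 1 higher and 5 lower in sedentary SkM (9.58%), 1 higher and 2 lower in trained BAT (4.47%) and 0 higher and 3 lower in trained SkM (8.88%). Nr1d1, a repressor of the clock, fell by 1.91 in BAT (SE 0.11, edgeR adjusted p = 5.82e-06) and by 2.03 in SkM (SE 0.23, edgeR adjusted p = 5.62e-04). Per2 rose by 1.65 (edgeR adjusted p = 0.0286) in BAT and by 1.82 (edgeR adjusted p = 1.68e-04) in SkM. Cry1 rose by 2.09 in BAT (SE 0.18, edgeR adjusted p = 1.57e-04), and its effect exceeded that in SkM by 1.53 (SE 0.23, edgeR adjusted p = 0.00108). The part of the clock in the Nampt values was not tested.

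The genes most like the members in their pattern over libraries were ranked by Pearson correlation of log2 CPM, as a description, among 6828 genes in BAT and 6287 in SkM. Libraries of a group share their treatment, so genes that respond to restriction rank high. For Nampt in BAT (15 libraries) these were Glul (0.955), Pde1a (0.942) and Aldh1l1 (0.929). Glul, the glutamine synthetase gene, rose by 1.05 on average under restriction (SE 0.097, edgeR adjusted p = 3e-06). For Nampt in SkM (14 libraries) they were Fam20b (0.952), Rcor3 (0.94) and Slc25a51 (0.94), the last of which encodes the mitochondrial NAD carrier and had an average effect of −0.19 (SE 0.058, edgeR adjusted p = 0.0183).

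For Sirt3 in SkM the nearest genes were Uqcc1 (0.981), an assembly factor of respiratory complex III, Sod2 (0.97) and Oxct1 (0.966), the enzyme that begins ketone body use. Their average effects under restriction were −0.55, −0.51 and −1.32, with edgeR adjusted p of 1.38e-04, 7.45e-04 and 3.81e-04. In BAT, where Sirt3 varied little, its highest correlation was 0.817, with Coq6. For Nmrk2 in SkM they were Serpine2 (0.943), Qrsl1 (0.939) and Glrx (0.934), and for Sirt1 they were Kmt2e (0.928), Clk1 (0.926) and Rbm5 (0.916) in BAT and Mcl1 (0.872), C2cd2l (0.861) and Lamp2 (0.854) in SkM.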

How the data were processed

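RNA was sequenced from 15 BAT and 14 SkM samples, 1 library per mouse and tissue. The authors aligned reads to mm10 with STAR and deposited unnormalized RSEM expected counts for each symbol (the submitters' processing notes give STAR 2.7.10a and RSEM 1.2.28). The annotation is not given in the sources used here, and the RSEM command in the paper's methods sets no strand option. Expected counts were rounded, 27 symbols turned into dates were left out of tests, and all comparisons were fitted on all genes with edgeR 4.0.16 (R 4.3.3, TMM, filterByExpr, robust quasi-likelihood test, Benjamini-Hochberg), each pair of groups on its own. The average effect, the interaction and the tissue difference were fitted over the groups they involve. Standard errors are the log2 fold change divided by the square root of F, and intervals are 95%. Correlations used log2 CPM with a prior count of 2 among genes with a mean of at least 10 CPM, and the 3 highest are named for Nampt, Nmrk2, Sirt1 and Sirt3. Listed genes are named where called in a pairwise comparison, up to 5 per list. A gene of the lists is not reported here by name. Floors cover counting error only. The members and lists were chosen with earlier results of these data known. Groups share replicate numbers, and treatment groups are different mice. Whether same-numbered BAT and SkM libraries came from 1 mouse is not stated, and tests between tissues treat them as independent. The block alternative pairs BAT and SkM by number in control mice. For the tissue difference it also ties same-numbered CR and control mice, so it is not a fit paired by mouse. Deviations of same-numbered libraries did not correlate in every pair (−0.471 to 0.498 over the pairwise comparisons), so the numbers were not taken as pairs. Alternatives were DESeq2 1.42.0, RLE size factors, other count filters, no fold minimum, the replicate block, 1 fit on all groups, marker scores as covariates and each library left out. The slow fibre covariate was chosen after seeing the data. The tests were checked on simulated data.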

Additional observations from a re-analysis of the deposited data

Results flagged for a closer look

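For 3 of 10 genes the effect of restriction in sedentary mice differed between the tissues in a joint edgeR fit, where 7.63% of all tested genes did. For Nampt the effect in BAT exceeded that in SkM by 0.93 on the log2 scale (edgeR adjusted p = 0.00208, at most 0.00888 in 19 alternatives). For Sirt3 the difference was 0.68 (edgeR adjusted p = 0.00893). For Sirt5 it was 0.54 (edgeR adjusted p = 0.0423), with edgeR or DESeq2 adjusted p from 0.0102 to 0.103 over the alternatives. Among 50 sets of 4 libraries, 1 gene in 1 group each, 0 had a library set apart by Dixon's test, which flags about 1 in 20 by chance.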

How the results depend on the processing

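Of 2273 values of single members under the alternatives, 2232 kept their side of the thresholds, 23 lost a call, 18 gained one and 0 reversed a call. Members that were not called in the main fit could not lose a call. The lost calls include Nampt in sedentary BAT, Sirt3 in trained SkM and the tissue difference of Sirt5, as given above. The values without a fold minimum came from the same fit and could only gain calls. The direction of a member that was called neither way differed in 122. With at least 10 counts in every library, 0 members were called in sedentary BAT and 2 in trained SkM, and 1 fit on all groups also called 2 in trained SkM. DESeq2 called 1 in trained BAT (Nmrk2, tested by it at −3.63, adjusted p = 0.0383), 1 for the BAT average (Nmrk2, −2.83, adjusted p = 0.0479) and 2 in trained SkM. In edgeR without the count filter Nmrk2 was at −3.51 (adjusted p = 0.212) and −2.66 (adjusted p = 0.132) in these BAT comparisons, and where leaving out a control library let it pass the filter, its BAT average was −2.96 or −2.95 (edgeR adjusted p = 0.0552 and 0.0538, without control replicate 2 or 3) and −0.35 (edgeR adjusted p = 0.855, without control replicate 1). Without the fold minimum, 2 passed in trained BAT, 4 for the BAT average and 6 for the SkM average. With the slow fibre score as a covariate, chosen after seeing the data, 0 were called in trained SkM. With single libraries left out, the number of members called ran from 0 to 1 in sedentary BAT, from 0 to 3 in trained SkM, from 7 to 8 between control tissues and from 2 to 3 for the tissue difference, and did not change in the other comparisons. Over all genes, calls moved from 1162 to between 51 and 2566 in trained SkM (51 with the slow fibre covariate), from 1415 to between 910 and 2736 in sedentary BAT, from 592 to between 361 and 1059 in trained BAT, from 1094 to between 662 and 1617 for the tissue difference, from 1636 to between 1120 and 4636 for the BAT average and from 1919 to between 1374 and 4549 for the SkM average. EX comparisons moved from 0 to at most 36 in BAT and from 10 to at most 49 in SkM, CREX against CR from 1 to at most 51 in BAT and from 0 to at most 101 in SkM, and the interactions from 0 to at most 4 and 182. The replicate block ties same-numbered libraries of different treatment groups, which are different mice. With it, Nampt in sedentary BAT was 0.61 (edgeR adjusted p = 0.0117) and Nmrk2 in sedentary SkM −1.68 (edgeR adjusted p = 0.0216). The tissue differences of Nampt, Sirt3 and Sirt5 were 0.93, 0.73 and 0.56 with this block (edgeR adjusted p = 0.00888, 0.0182 and 0.101). Of 160 group levels under other scalings, 5 moved by 1 SD or more. Nmrk2 in BAT is limited by counts near 0.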

Other observations

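Nmrk2 was set against the muscle RNA of each library after its values were seen. Per 1000000 CPM of the 10 muscle genes, Nmrk2 was at 346 to 921 CPM in SkM of control and EX mice and at 31.4 to 150 in CR and CREX mice. In BAT, the 4 control and EX libraries with muscle sums of at least 640.6 CPM gave 614.7, 155.3, 242.6 and 409.5. The 6 CR and CREX libraries above that level gave 61.2, 60.6, 0, 35.7, 21.3 and 20.4. The BAT values rest on 0 to 37 counts, and no test was made of them.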
